A study of Homo sapiens with 6 samples.

Results

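The genes described here are the FGF receptors and the molecules next to them in AN3CA cells, a human endometrial cancer line in long use. They are *FGFR1*, *FGFR2*, *FGFR3*, *FGFR4*, *FGFRL1*, *FRS2*, *FGF2*, *FGF9*, *FGF18* and *FGF13*, which were chosen by name. All 10 were among the 17471 genes listed in the deposited table, and 7 of them were among the 13163 genes that passed the filter on low values and were tested. RNA-seq was performed on 3 libraries of cells that carried an empty hairpin vector (shEV) and 3 libraries of cells that carried a hairpin against *PAX2* (shPAX2), a developmental transcription factor, to learn what its loss does to gene expression. The labels give the shEV cells as WT and the shPAX2 cells as *PAX2* knockdown. Both groups were AN3CA cells transduced with lentivirus, selected with puromycin and grown in MEM with FBS. A single hairpin sequence was used, and the study's text elsewhere calls the AN3CA control scrambled. Nothing states that replicates came from separate cultures, so p-values measure the spread between these 6 libraries, which may be technical. Means are given ± SD over the 3 libraries of a group.

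Fibroblast growth factors bind receptor tyrosine kinases together with heparan sulfate, and the docking protein FRS2 links the activated receptors to the RAS-MAPK and PI3K pathways. Signaling induces the ETV transcription factors and its own inhibitors, among them the Sprouty proteins and the ERK phosphatase DUSP6. *FGFR2* is recurrently mutated in endometrioid endometrial cancer, and AN3CA is known as a line with activating *FGFR2* mutations. In the normal uterus, stromal FGFs signal to epithelial FGFR2 through its IIIb splice form. Gene-level values do not separate the IIIb and IIIc forms.

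Where a promoter could be read, the sequence from 250 bases before to 50 bases after an annotated start was searched for CGTGAC and its reverse complement GTCACG, the core of the site bound by the paired domain of PAX2, PAX5 and PAX8. The motif was searched because *PAX2* was the gene targeted. It was found in 9.0% of 34935 RefSeq promoter windows. The sequences are from RefSeq (GRCh38.p14), placed by exact match on GRCh37, and the motif is in capitals. Of 5 annotated *FGFR2* windows, 2 held 1 match each. The first is the GC-rich window at the outermost start, with 52 CG dinucleotides against a median of 14 over all windows, and the second lies inside the gene at an alternative start with 8 CG dinucleotides. No match was found in the windows of *FGFR3*, *FGFR4*, *FGFRL1*, *FRS2*, *FGF2*, *FGF18*, *FGF13* or *FGF10*, which says only that these letters were not in those windows. No motif result is given here for windows of *FGFR1* or *FGF9*, so *FGFR2* cannot be set against *FGFR1*. This omission does not show whether those windows could be read or whether they hold the motif. The *FGFRL1* window is shown as that of another receptor gene whose level differed between the groups.
FGFR2 chr10:123357909-123358208 (minus strand): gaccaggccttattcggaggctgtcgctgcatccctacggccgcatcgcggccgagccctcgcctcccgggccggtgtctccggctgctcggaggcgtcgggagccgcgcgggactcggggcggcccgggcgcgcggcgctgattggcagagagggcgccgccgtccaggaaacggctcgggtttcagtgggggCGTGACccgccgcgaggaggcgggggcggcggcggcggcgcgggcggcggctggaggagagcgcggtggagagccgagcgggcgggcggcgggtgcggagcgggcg
FGFR2 chr10:123353723-123354022 (minus strand): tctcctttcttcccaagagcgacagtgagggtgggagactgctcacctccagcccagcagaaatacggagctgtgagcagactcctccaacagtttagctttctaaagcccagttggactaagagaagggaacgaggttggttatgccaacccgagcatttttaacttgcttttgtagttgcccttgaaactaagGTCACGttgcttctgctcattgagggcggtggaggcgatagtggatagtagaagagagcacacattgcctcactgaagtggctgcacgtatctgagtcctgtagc
FGFRL1 chr4:1006002-1006301 (plus strand): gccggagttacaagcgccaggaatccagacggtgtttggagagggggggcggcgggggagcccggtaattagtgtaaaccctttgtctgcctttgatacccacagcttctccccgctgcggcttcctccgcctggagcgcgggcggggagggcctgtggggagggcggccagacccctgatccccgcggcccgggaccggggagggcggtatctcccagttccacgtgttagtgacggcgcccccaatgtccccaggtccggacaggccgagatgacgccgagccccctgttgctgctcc

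Depth, as reads recovered from the deposited values, was 10730909 to 18221859 in shEV and 19422615 to 29405787 in shPAX2, so each shPAX2 library was the deeper. Within groups, chi-square per degree of freedom between libraries ran from 3.2 to 5.5 except for shPAX2 replicate 1, which stood at 12.5 and 15.5 from the other shPAX2 libraries, and between groups it ran from 33.4 to 61. *PAX2* (chr10:102495153-102589701, GRCh37) stood at 26.9% of its shEV mean in shPAX2, with a log2 fold change of -1.47 (SE 0.18, limma adjusted p = 0.000294), and the groups did not overlap. Among defining epithelial markers, 13 of 14 listed genes were under 1 TPM in each library although the labels call the cells epithelial. *CDH1* was at most 0.0851 TPM and *EPCAM* at most 0.387 TPM, while *KRT18* reached 10.2 to 17.5 TPM. Summed epithelial markers ranged from 11.4 to 13.5 TPM in shEV and from 12.5 to 18.4 TPM in shPAX2. Mesenchymal or stromal markers, led by *VIM* at 3750 to 4410 TPM, summed to 4980 to 5390 TPM in shEV and 4450 to 4640 TPM in shPAX2, and 5 of the 11 listed were under 1 TPM. Endothelial (3 listed) and blood (4 listed) markers were all under 1 TPM. The part of these marker differences in the results was not tested, and fewer cells of a kind cannot be told apart from less RNA per cell in bulk libraries.

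TPM, the reads per gene length scaled to 1000000 per library, placed *FGFR1* first among these genes in shEV, followed by *FGFR2*, *FGFRL1*, *FGF2*, *FGFR3*, *FRS2*, *FGFR4* and *FGF18*. The ranges of neighbors in this order did not overlap in shEV. *FGF9* and *FGF13* were at or near 0 and could not be ordered. In shPAX2 the order was the same, but *FGFRL1* at 25.9 to 28.9 TPM and *FGF2* at 21.5 to 27.4 TPM overlapped. The cells thus held mainly *FGFR1* and *FGFR2* transcripts, which together made up 96.2% ± 0.331 of the summed receptor kinase TPM in shEV and 95.2% ± 0.282 in shPAX2.

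**Figure D1:**
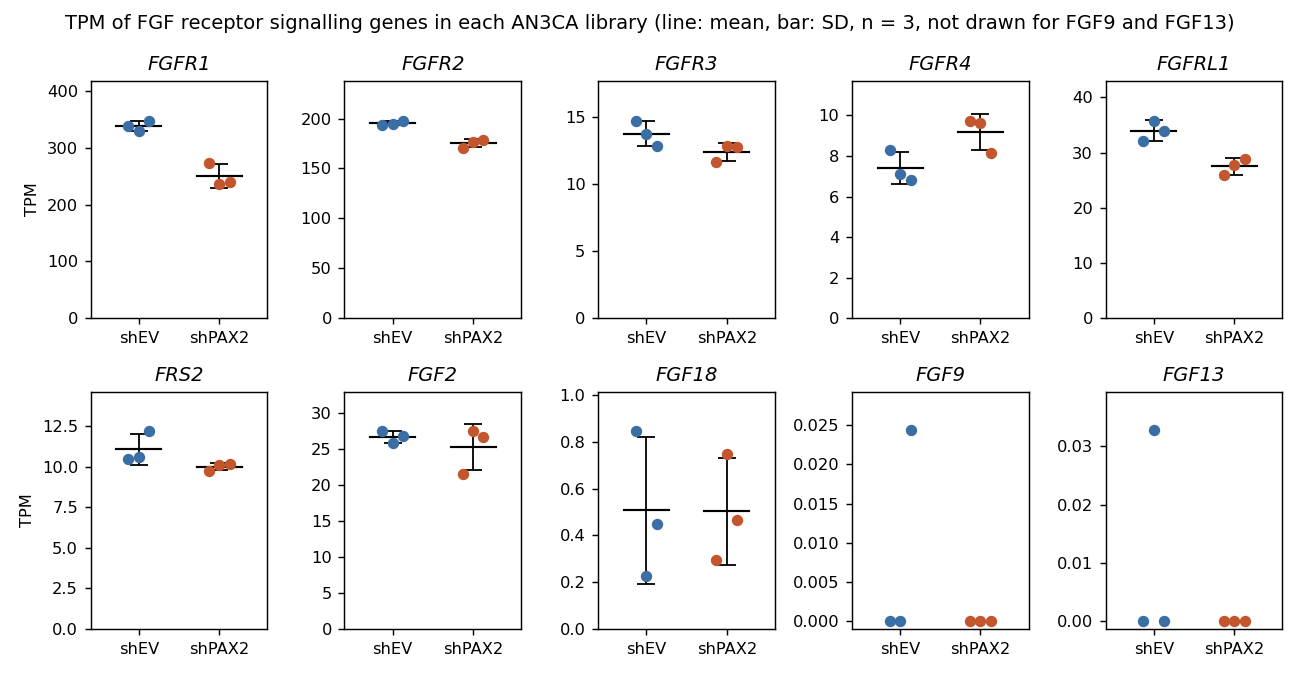
TPM of each gene (vertical axis from 0 or just below, linear) in the 3 shEV and 3 shPAX2 libraries, 1 point per library, with the mean and SD where drawn. *FGFR1*, *FGFR2* and *FGFRL1* sit lower in all 3 shPAX2 libraries, *FGF2* and *FGFR4* overlap between the groups, and *FGF9* and *FGF13* each have 1 library above 0.

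*FGFR2* fell slightly in shPAX2 on the TPM scale. The gene lies on chr10:123237846-123357972 (minus strand), 20.6 Mb from *PAX2* on the same chromosome. Its level in shEV was 194, 195 and 198 TPM for replicates 1 to 3 (5811, 9609 and 9950 reads). The shPAX2 replicates had 171, 177 and 179 TPM (14580, 13273 and 9758 reads). All shPAX2 libraries were below all shEV libraries, and both groups were tight. The coefficient of variation was 0.927% in shEV and 2.47% in shPAX2, against 0.828% to 1.31% that read counting alone gives for a library. The mean fell by 10.2%, from 196 ± 1.81 to 176 ± 4.34 TPM. The log2 fold change was -0.16 (SE 0.05, 95% interval -0.27 to -0.04), with a limma adjusted p of 0.0397. The exact two-sided permutation test over libraries gave 0.1, the smallest value that 3 against 3 allows.

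The difference in *FGFR2* was close to that of the whole table. Over the tested genes of the table the median was -0.10 on the TPM scale, so *FGFR2* lay only 0.05 below it. Median-of-ratios scaling, which sets that median to -0.0002, gave *FGFR2* a log2 fold change of -0.05 (limma adjusted p = 0.462), while quantile normalization gave -0.19 (limma adjusted p = 0.0113). The call was also lost when any 1 of the 6 libraries was left out, at log2 fold changes of -0.17 to -0.14 and limma adjusted p of 0.0517 to 0.115.

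*FGFR1*, the other abundant receptor kinase, fell further. It lies on chr8:38257733-38326352 (minus strand) and overlaps *LETM2* on the opposite strand. It was measured at 338, 329 and 348 TPM in shEV and at 274, 237 and 240 TPM in shPAX2, from 11455 to 26479 reads per library. The groups did not overlap, and shPAX2 replicate 1 was the shPAX2 library nearest to shEV. The shPAX2 mean was 74.1% of the shEV mean, 338 ± 9.74 against 251 ± 20.7 TPM. The log2 fold change was -0.43 (SE 0.07, 95% interval -0.59 to -0.28), and the limma adjusted p was 0.00128. It passed the threshold in each of the 15 alternative settings, with log2 fold changes from -0.50 to -0.33, the smallest size under median-of-ratios scaling.

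The balance between these receptors was read as a ratio within a library, which no scaling of the library alters. Ratios between genes, here and below, were not among the planned tests. The *FGFR2* to *FGFR1* ratio restates the gap between the fold changes of these genes. The ratio of *FGFR2* to *FGFR1* TPM was 0.574, 0.594 and 0.568 in shEV and 0.623, 0.744 and 0.747 in shPAX2. Each shPAX2 library had the higher ratio, with shPAX2 replicate 1 nearest to shEV. The mean ratio was 0.578 ± 0.0135 in shEV and 0.705 ± 0.0711 in shPAX2. The ratio of the geometric means was 1.21, and the exact permutation test gave its smallest p of 0.1. Leaving out each library in turn gave log2 differences of 0.24 to 0.37 around 0.28. *FGFR1* made up 60.9% ± 0.605 of the summed receptor kinase TPM in shEV and 55.9% ± 2.51 in shPAX2, and *FGFR2* made up 35.2% ± 0.505 and 39.3% ± 2.31. The sum itself was 556, 544 and 565 TPM in shEV and 467, 436 and 440 TPM in shPAX2, with a ratio of the geometric means of 0.806 and no overlap.

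**Figure D2:**
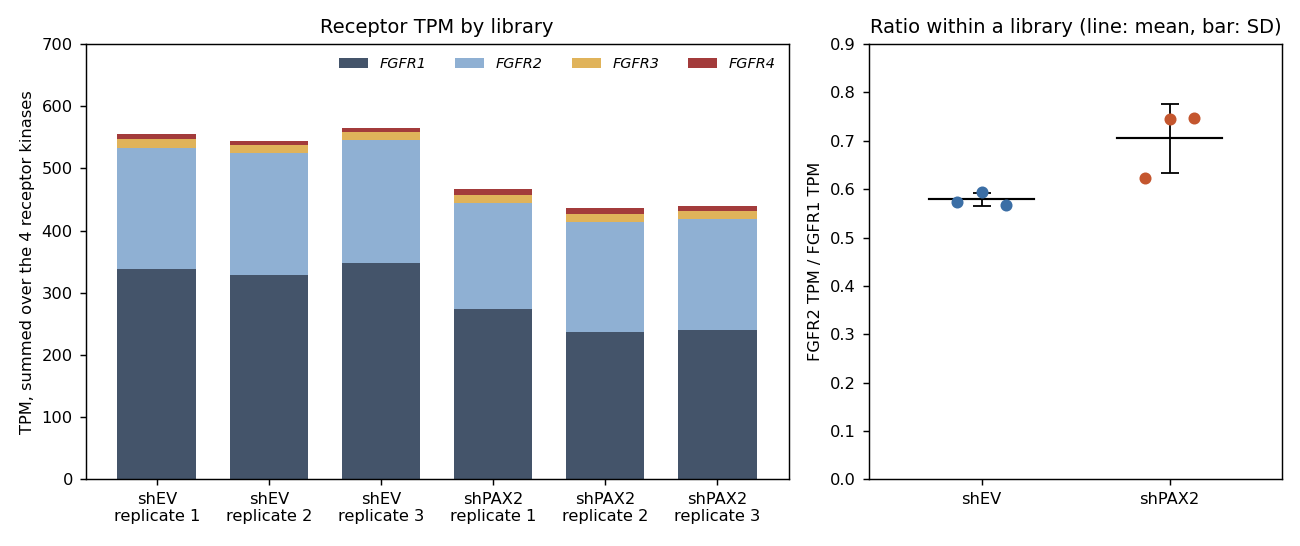
Left, stacked TPM of *FGFR1*, *FGFR2*, *FGFR3* and *FGFR4* in each library. Right, the *FGFR2* to *FGFR1* TPM ratio per library with the group mean and SD, which lies between 0.568 and 0.594 in shEV and between 0.623 and 0.747 in shPAX2.

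*FGFR3* and *FGFR4* were minor receptors in these cells. *FGFR3* (chr4:1795020-1810599, plus strand) measured 14.7, 13.7 and 12.8 TPM in shEV and 11.6, 12.8 and 12.7 TPM in shPAX2. The groups met at 12.8 TPM without overlapping. The log2 fold change was -0.15 (SE 0.08, 95% interval -0.32 to 0.03, limma adjusted p = 0.157), and under quantile normalization its sign turned, to 0.03. The *FGFR3* to *FGFR2* ratio was 0.0703 ± 0.00532 in shEV and 0.0703 ± 0.00209 in shPAX2 (exact permutation p = 0.9).

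*FGFR4* was the receptor with a higher mean in shPAX2. It lies on chr5:176513906-176525145 (plus strand) and measured 8.3, 7.09 and 6.8 TPM in shEV against 9.75, 9.61 and 8.15 TPM in shPAX2. shEV replicate 1 lay above shPAX2 replicate 3, so the groups overlapped in TPM. The log2 fold change was 0.29 (SE 0.11, 95% interval 0.05 to 0.53), and its limma adjusted p of 0.0501 missed the threshold. Of the 15 alternatives, 8 brought it past the threshold, among them median-of-ratios scaling (0.39, limma adjusted p = 0.017) and quantile normalization (0.51, limma adjusted p = 0.00476). The *FGFR4* to *FGFR2* ratio within a library was 0.0378 ± 0.00435 in shEV and 0.0523 ± 0.00608 in shPAX2, 1.38-fold higher by geometric means, with no overlap and an exact permutation p of 0.1. The *FGFR4* to *FGFR1* ratio was 1.68-fold higher by geometric means.

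*FGFRL1*, an FGF-binding receptor without a kinase domain, fell with *FGFR1*. It lies on chr4:1003724-1020686 (plus strand). Its level was 32.1, 35.8 and 34 TPM in shEV and 25.9, 27.8 and 28.9 TPM in shPAX2, without overlap. The shPAX2 mean was 81% of the shEV mean, with a log2 fold change of -0.30 (SE 0.07, 95% interval -0.45 to -0.15, limma adjusted p = 0.00752). It passed in each of the 15 alternatives, with limma adjusted p from 0.00282 to 0.0493. *FRS2*, the docking adaptor (chr12:69864129-69973573, plus strand), measured 10.5, 10.6 and 12.2 TPM in shEV and 9.77, 10.1 and 10.2 TPM in shPAX2. Its groups did not overlap, but the log2 fold change of -0.13 (SE 0.08, 95% interval -0.32 to 0.05) did not pass (limma adjusted p = 0.216), and it was 0.06 under quantile normalization.

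Among the ligands, *FGF2* was the abundant member. *FGF2* (chr4:123747837-123819391, plus strand) is a secreted growth factor without a classical signal peptide, and *NUDT6* overlaps it on the opposite strand. It measured 27.4, 25.8 and 26.7 TPM in shEV and 21.5, 27.4 and 26.6 TPM in shPAX2. The groups overlapped, and shPAX2 replicate 1 alone was low, at 0.798 of the mean of the other 2 shPAX2 libraries. The log2 fold change was -0.09 (SE 0.09, 95% interval -0.29 to 0.12, limma adjusted p = 0.466). It turned to 0.02 without shPAX2 replicate 1 and under median-of-ratios scaling, and to 0.01 under quantile normalization.

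The other 3 FGF genes were below the filter. *FGF18* (chr5:170846651-170884630), a secreted ligand, was listed at 0.846, 0.228 and 0.447 TPM in shEV and 0.297, 0.749 and 0.465 TPM in shPAX2, from 4 to 20 reads per library. The groups overlapped, and the fit without a filter gave a log2 fold change of 0.02 (limma adjusted p = 0.968). *FGF9* (chr13:22245212-22278637), a secreted ligand known from the endometrial stroma, was above 0 only in shEV replicate 3. *FGF13* (chrX:137696888-138304939), an intracellular FGF homologous factor, was above 0 only in shEV replicate 2. Each of these values was taken as 1 read, because ratios between libraries cannot give the count of such a gene. On that basis, a count of 0 still allows 3 reads per library. This corresponds to 0.0433 to 0.123 TPM for *FGF9* and 0.0568 to 0.162 TPM for *FGF13*, and at this depth a difference could not be detected.

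Of the 7 genes tested, 3 passed an adjusted p under 0.05 and all 3 were lower in shPAX2 (*FGFR1*, *FGFR2* and *FGFRL1*). Over all tested genes, 42.8% passed in either direction, 30.5% lower and 12.2% higher. The 42.9% of members that passed thus stood at the background. With a log2 fold change of 1 or more in size also required, limma called 0 members at an adjusted or unadjusted p, and voom on recovered reads also called 0, against 4.54% of all genes in limma (3.11% lower and 1.43% higher). The groups did not overlap in 5 of 7 members, against 54.9% of all genes. The median log2 fold change of the members was -0.15 on the TPM scale, -0.04 under median-of-ratios scaling, and 0.01 under quantile normalization. Median-of-ratios scaling called 2 members lower and 1 higher, and over all genes it moved the lower share of calls from 71.4% to 48.5%.

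**Figure D3:**
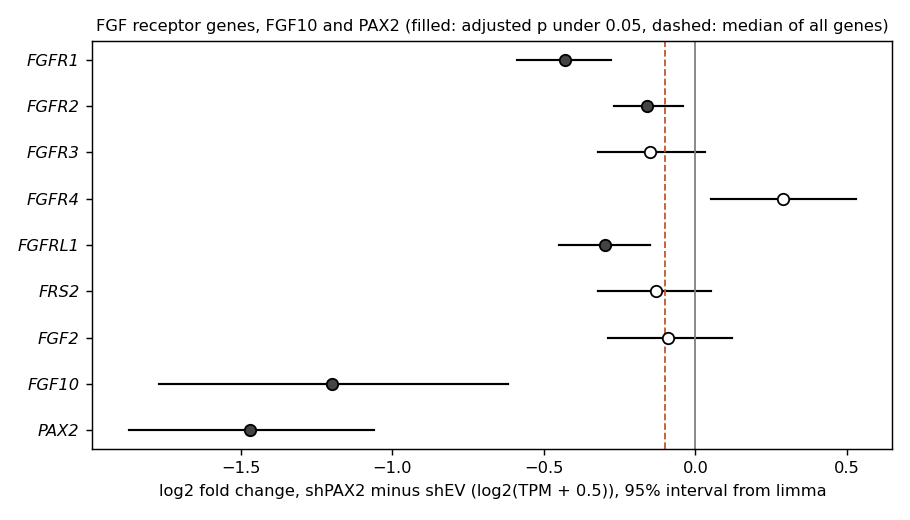
Log2 fold changes of the tested members, *FGF10* and *PAX2* on log2(TPM + 0.5), with 95% intervals from limma. *FGFR1* (-0.43) and *FGFRL1* (-0.30) lie below the dashed all-gene median of -0.10 with their whole interval, the *FGFR2* interval covers it, and *FGFR4* is the member above 0.

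**Figure D4:**
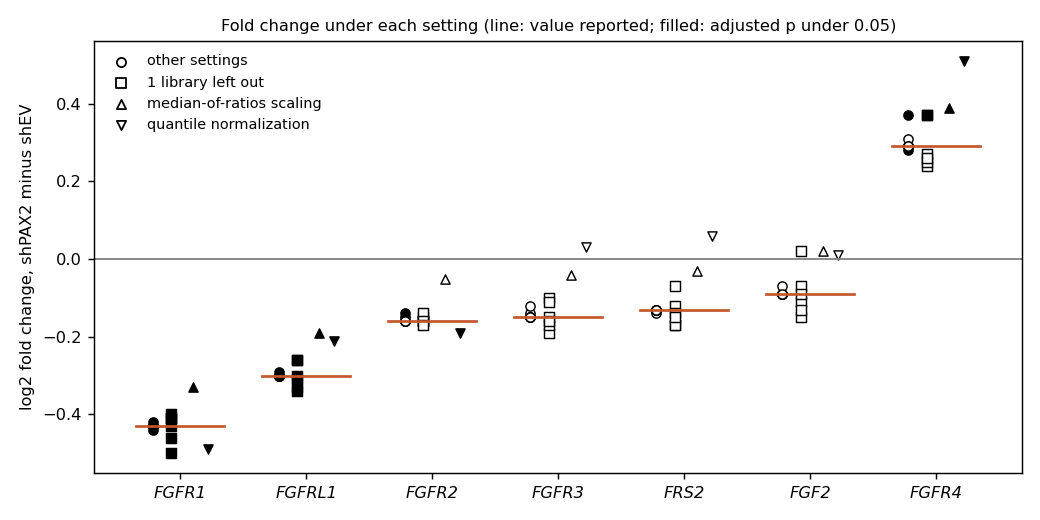
Log2 fold changes of the tested members under each setting, where a filled symbol has an adjusted p under 0.05 and the line is the value reported. *FGFR1* and *FGFRL1* are filled throughout, *FGFR2* is open in 9 of 15 alternatives and *FGFR4* is filled in 8 of 15.

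A wider set of 119 other FGF pathway genes was read by role. The table listed 106 of them and 82 were tested. Of these, 38 passed, 32 lower and 6 higher in shPAX2, with a median log2 fold change of -0.15. This was 46.3% of the tested pathway genes, near the 42.8% of all genes. Median-of-ratios scaling gave 23 lower and 14 higher, against 2626 and 2786 of all 13163 genes. Leaving out shEV replicate 3 gave 25 calls of 80 tested, 21 lower and 4 higher, against 2971 and 1319 of all 12922 genes. Leaving out shPAX2 replicate 2 gave 24 lower and 3 higher, against 2867 and 975 of all 13014 genes. Leaving out shPAX2 replicate 1 gave 30 lower and 12 higher, against 3855 and 1803 of all 13017 genes. *SDC2* and *HS6ST2* passed the filter on low values only through shEV, and of the other 80 genes 30 were lower and 6 higher, or 45.0%. Over all genes, 250 passed the filter through 1 group only, and 41.8% of the other 12913 were called. The genes named in the following paragraphs only to complete a count, and without a rule, were chosen after their values were seen.

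*FGF10*, a secreted ligand that binds the IIIb form of FGFR2, was the ligand that differed. Of 15 other secreted FGF genes 8 were listed and 3 tested. *FGF10* (chr5:44300349-44389808, minus strand) was lower in shPAX2, with 36.2, 29.6 and 31.4 TPM in shEV and 19.7, 11.5 and 11.6 TPM in shPAX2. The groups did not overlap, and shPAX2 replicate 1 was 1.71 times the mean of the other 2. The means were 32.4 ± 3.43 and 14.3 ± 4.71 TPM, and the log2 fold change was -1.20 (SE 0.23, limma adjusted p = 0.0104). Over the 15 alternatives the limma adjusted p ran from 2.79e-05 to 0.0415. The gene length behind its TPM was 11.3% of that of *FGFR2*, so these levels rested on 71 to 189 reads per library. *FGF8* (log2 fold change -0.14, limma adjusted p = 0.714) and *FGF22* (-0.36, limma adjusted p = 0.524) were near the filter.

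*FGF2* and *FGF10* had like levels in shEV and unlike levels in shPAX2. The *FGF2* to *FGF10* TPM ratio was 0.756, 0.872 and 0.851 in shEV and 1.09, 2.39 and 2.29 in shPAX2. All shPAX2 libraries were above all shEV libraries, and the ratio of the geometric means was 2.2 (exact permutation p = 0.1). This ratio was not planned. *FGF10* was named because it passed the thresholds, so the ratio largely restates its fall and is no separate result.

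Among coreceptors, ligand carriers and receptor partners, 9 of 21 genes were tested. Without *SDC2*, which passed the filter only through shEV and so had to differ, 8 remain, of which *GPC3*, *GPC4* and *GPC6* fell and *SDC3* rose. This was 50%, against 41.8% of all genes that did not pass the filter through 1 group only. Syndecans (SDC) and glypicans (GPC) are the cell-surface proteins that carry heparan sulfate. *SDC2* (chr8:97506041-97624018) is given as a description, at 4.33, 4.03 and 4.67 TPM in shEV and 0.075, 0.128 and 0.0588 TPM in shPAX2. These values rest on 81 to 147 reads per shEV library and 2 to 6 reads per shPAX2 library. *SDC1*, the most abundant of the list, averaged 101 ± 5.2 TPM in shEV and 106 ± 2.84 TPM in shPAX2, a log2 fold change of 0.07 (limma adjusted p = 0.361). It passed under median-of-ratios scaling (0.18, limma adjusted p = 0.0418). *GPC3* passed in 10 of the 14 alternatives in which it was tested, *GPC4* in 14 of 15 and *SDC3* in 13 of 15.

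*KL*, the coreceptor for the hormone FGF23, was below the filter and was singled out after its values were seen. It had 0 reads in each shEV library and 16, 17 and 13 reads in shPAX2, at 0.209, 0.252 and 0.266 TPM. Its mean in shPAX2 was 2.96-fold that of a floor of 3 reads per shEV library, without allowance for counting error in shPAX2. The *KL* levels were under that of each receptor kinase. Some other untested genes of the lists, among them *CCND1* and *FGF17*, were lower in shPAX2.

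The enzymes that build heparan sulfate were mixed, with 8 of 12 tested. *HS6ST2*, a sulfotransferase, passed the filter only through shEV, where it averaged 0.791 ± 0.192 TPM against 0.0977 ± 0.0599 TPM in shPAX2. The called share of the other 7 was 28.6%, against 41.8% of all genes that did not pass the filter through 1 group only. Of these 7, *EXT1*, a chain polymerase, fell and passed in 11 of 15 alternatives. *EXT2*, the polymerase partner, rose from 62.8 ± 5.63 to 74 ± 1.5 TPM (log2 fold change 0.24, limma adjusted p = 0.0238). The *EXT2* call was lost when shEV replicate 2 or 3 or shPAX2 replicate 2 or 3 was left out (limma adjusted p 0.0598 to 0.0904). Over the 8 tested, the median log2 fold change was -0.08, and median-of-ratios scaling turned it to 0.02.

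Most adaptors and transducers did not pass. Of 32 tested, 7 were lower and *HRAS* was higher, a called share of 25% against 42.8% of all genes, and the median log2 fold change was -0.09. *SHC1*, the most abundant, averaged 155 ± 3.01 TPM in shEV and 147 ± 12.3 TPM in shPAX2 (log2 fold change -0.09, limma adjusted p = 0.338) and stood at 0.02 under median-of-ratios scaling. *STAT3*, chosen after its values were seen, was among the lower genes (log2 fold change -0.63, limma adjusted p = 9.25e-05). Median-of-ratios scaling called 5 of the 32 adaptors lower and 5 higher, against 2626 lower and 2786 higher of all 13163 genes.

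Of 15 inhibitors of the pathway tested, 11 were lower and *DUSP4* and *IL17RD* were higher, so 86.7% passed against 42.8% of all genes, and the median log2 fold change was -0.30. *DUSP6*, the most abundant, was 620, 616 and 629 TPM in shEV and 469, 453 and 457 TPM in shPAX2. The groups were far apart for their spread, with a log2 fold change of -0.44 (SE 0.05, limma adjusted p = 0.000269). *DUSP4*, another MAP kinase phosphatase, went the other way, from 10.3, 11.6 and 12.8 TPM in shEV to 64, 66.8 and 65.5 TPM in shPAX2. Its log2 fold change was 2.46 (SE 0.08, limma adjusted p = 1.52e-07). *SPRY1*, *SPRY2* and *SPRY4*, the Sprouty genes listed, were named after their values were seen and had log2 fold changes of -0.61, -0.30 and -0.29 (limma adjusted p = 0.000321, 0.0155 and 0.0159).

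The number of lower inhibitors depended on the scaling and on single libraries. It was 6 under median-of-ratios scaling and 7 under quantile normalization, with 2 higher in both. Lower calls over all 13163 genes also fell, from 4017 to 2626 and 2489 under these settings. The lower inhibitors numbered 5 without shEV replicate 3, 6 without shPAX2 replicate 2 and 7 without shPAX2 replicate 3. In the same fits, lower calls over all genes numbered 2971 of 12922, 2867 of 13014 and 3238 of 13019. *DUSP6*, *DUSP4* and *SPRY1* passed in each of the 15 alternatives.

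The transcriptional targets were lower or did not pass. Of 9 tested, limma called 6 lower and 0 higher (0 higher also at an unadjusted p under 0.05 and with voom on recovered reads, and 1 higher, *PHLDA1*, without shPAX2 replicate 1), with a median log2 fold change of -0.36, and median-of-ratios scaling called 5 lower. The called share was 66.7%, against 42.8% of all genes, of which 30.5% were lower. *ETV4*, an ETS factor induced by FGF signaling and the most abundant of the list, was 123, 127 and 128 TPM in shEV and 94, 90.4 and 86.4 TPM in shPAX2, a log2 fold change of -0.48 (SE 0.06, limma adjusted p = 0.000267). *EGR1*, an immediate early gene of the MAPK pathway, was 36.6, 34.5 and 41.7 TPM in shEV and 12.8, 14 and 14.1 TPM in shPAX2. In both genes the groups did not overlap, and for *EGR1* the log2 fold change was -1.43 (SE 0.08, limma adjusted p = 5.05e-06). *FOS*, another immediate early gene, varied more, at 43.6, 22.5 and 29.7 TPM in shEV and 7.18, 11.3 and 10.7 TPM in shPAX2. Its log2 fold change was -1.64 (SE 0.31, limma adjusted p = 0.012). *FOSL1*, *IER2* and *PHLDA1* did not pass.

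The regulators that choose between the IIIb and IIIc exons of the receptors were read because the values do not separate the forms. *ESRP1* and *ESRP2*, the epithelial factors that promote IIIb, had at most 1 and 7 reads in a library and were not tested. *PTBP1*, a repressor of the IIIb exon, rose, with means of 173 ± 6.32 and 216 ± 8 TPM and a log2 fold change of 0.32 (SE 0.06, limma adjusted p = 0.00247), and its relative *PTBP2* fell. The other 4 of 6 tested did not pass, so the called share was 33.3%, against 42.8% of all genes. Under median-of-ratios scaling, or when shPAX2 replicate 1 was left out, 3 of the list were called higher.

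**Figure D5:**
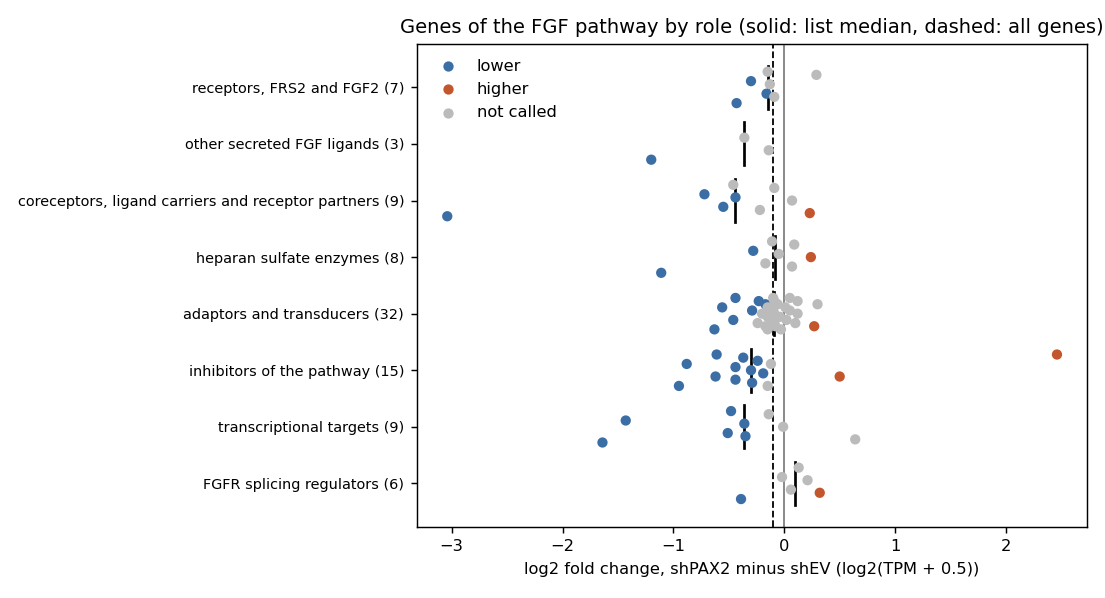
Log2 fold change of each tested pathway gene by role, colored by call, with the list median (solid) and the all-gene median of -0.10 (dashed). The inhibitors (median -0.30) and the transcriptional targets (median -0.36) lie mostly to the left, with *DUSP4* far to the right, and the adaptors (median -0.09) crowd around the dashed line.

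The genes with the profile most like that of *FGFR2* over the 6 libraries were also examined. Among 12475 genes with a mean of at least 1 TPM, likeness was the root mean square difference of log2(TPM + 0.5), centered on the gene mean. The most alike were *YBX1* (0.0146), *SZRD1* (0.015), *LCMT1* (0.0152), *NDUFS1* (0.0166) and *HYOU1* (0.017), against a median of 0.149 over all genes. Their log2 fold changes lay between -0.17 and -0.13, a nearness to *FGFR2* that the choice by likeness fixed in advance.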

How the data were processed

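Total RNA libraries were made with a stranded kit. The authors deposited TPM values per gene symbol, and each library sums to 1000000. The submitters' processing notes name bcl2fastq, STAR, Subread, featureCounts, edgeR and hg19, without their roles. The strand setting of the counting is not given in the sources used here, so reads of genes that overlap on opposite strands may not be told apart. The methods in the paper that name a counting tool are for another line.

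Ratios between libraries were ratios of whole numbers in 100.0% of genes (tolerance 1e-06), from which read counts were recovered. On simulated reads this was exact for 97.65% of 16702 genes. A gene above 0 in only 1 library was taken as 1 read there, which the ratios cannot show. Depth limits low genes, and floors cover counting error only.

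Genes with at least 0.5 TPM in at least 3 libraries were tested on log2(TPM + 0.5) with limma 3.58.1 (lmFit, eBayes with trend and robust) in R 4.3.3, 3 shPAX2 against 3 shEV, without covariates, two-sided, with Benjamini-Hochberg adjustment over all tested genes and a threshold of 0.05. The log scale understates changes of low genes. Exact permutation tests used scipy 1.17.1. The fit was tested on simulated data.

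The alternatives were pseudocounts of 0.1 and 1, no filter, a filter at 5 TPM, median-of-ratios scaling, quantile normalization, eBayes without trend or robust, voom on recovered reads, a replicate block, and leaving out each library.

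The members, the lists and the tests were chosen with earlier results of these data known. Besides *PAX2* and the members, the rule named list genes past the threshold with a log2 fold change of 1 or more in size and a mean TPM of at least 1, the most abundant tested gene of each list, and the 5 genes most like *FGFR2*. Positions are from GENCODE on GRCh37.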

Additional observations from a re-analysis of the deposited data

How the results depend on the processing

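Among the 3 members called, *FGFR2* was the one whose call was lost under other settings. Its log2 fold change was -0.05 under median-of-ratios scaling, -0.16 in eBayes without trend or robust (limma adjusted p = 0.0544), -0.16 with the replicate block (limma adjusted p = 0.0771) and -0.17 to -0.14 when 1 library was left out, and in each of these 9 alternatives it missed the threshold. The cause was not tested beyond the all-gene median that the scaling moves. *PAX2* kept its direction and its call throughout, with -1.61 to -1.36 when 1 library was left out, as did *FGFR1*, *FGFRL1*, *FGF10*, *DUSP4*, *DUSP6*, *EGR1*, *ETV4* and *PTBP1* in every alternative that gave a value. Signs turned for *FGFR3* (0.03) and *FRS2* (0.06) under quantile normalization, for *FGF2* under median-of-ratios scaling (0.02), quantile normalization (0.01) and without shPAX2 replicate 1 (0.02, within -0.15 to 0.02 when 1 library was left out), and for *SHC1* under median-of-ratios scaling (0.02), and none of these passed the threshold in any setting. With the fold threshold added, calls numbered 0 of 7 members, 6 of 82 other pathway genes and 598 of 13163 genes (4.54%). The 6 include *SDC2* and *HS6ST2*, which passed the filter only through shEV. Leaving out 1 library gave 2 to 3 members, 25 to 42 pathway genes and 3842 to 5658 genes in all. The labels number the replicates alike in both groups, but the correlations of same-numbered deviations were -0.0523, 0.0815 and 0.0014. Same-numbered libraries thus showed little shared deviation over all genes, and whether they shared a batch is not stated. The replicate block called 3 members, 36 pathway genes and 5112 genes, with *FGFR4* (limma adjusted p = 0.0396) and *PHLDA1* past the threshold and *FOS* not (limma adjusted p = 0.0686). Depth limited *FGF9*, *FGF13* and *FGF18*, which rest on at most 20 reads per library.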
